A study of Homo sapiens with 30 samples.

Results

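The genes described here are 10 components of the machinery that carries a signal inward from the T cell receptor. *LCK*, *ZAP70*, *TXK* and *PRKCH* encode kinases, and *LAT*, *LCP2*, *SIT1*, *SH2D1A*, *THEMIS* and *TESPA1* encode adaptors or adaptor-like proteins. They were chosen by name, with earlier results of these data known. They carry 25 probe sets. The brightest one on average over the 30 arrays stands for each gene, and the other 15 serve as a check. The array holds 19775 genes with a probe set of a single symbol, and all 10 were measured.

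When the T cell receptor is engaged, LCK phosphorylates the CD3 chains, ZAP70 docks on them and phosphorylates LAT and LCP2 (SLP-76), and these adaptors assemble the complexes that start calcium, RAS and protein kinase C signaling. Several of these genes come on as progenitors commit to the T lineage in the thymus, a step that depends on Notch. Early T cell precursor leukemia is arrested before or at this step, and MEF2C is one of the transcription factors that rearrangements switch on in it.

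LOUCY is an established human leukemia cell line of that immature type, which already expresses *MEF2C* from a rearranged locus and is described in the study as lacking *NOTCH1* mutations, so every group here shares both features. RNA was hybridized to 30 single-color Affymetrix arrays, 3 for each of 10 groups. A bulk line with a dox-inducible MEF2C construct (the MEF2C line) was profiled without stroma (medium) and on 2 mouse stromal lines, OP9-DL1, which displays the Notch ligand Delta-like 1, and its control OP9-GFP. A line with an inducible intracellular NOTCH1 construct (the ICN line) and a line with both constructs (the MEF2C and ICN line) were profiled in medium. Each of these 5 settings was measured without dox and with dox, and the undosed arrays of the same line and culture were the control. Dox was not given to cells without a construct in these arrays, so its own effect and that of the construct it induced cannot be told apart, and neither can a difference between lines and the construct they carry. Values are log2 expression levels after RMA. Whether the 3 arrays of a group are separate cultures is not given in the labels, so the spread behind each p-value is that among these arrays and may be technical. In RNA from whole cultures, fewer cells that express a gene and less of its RNA per cell cannot be told apart.

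The probe sets of the induced genes did not all move one way. One *MEF2C* probe set averaged 7.68 ± 0.05 without and 8.21 ± 0.14 with dox in the MEF2C line in medium (SD, n = 3), and 7.58 ± 0.05 and 8.25 ± 0.08 in the MEF2C and ICN line. The other 2 *MEF2C* probe sets were lower with dox in all these cultures, the brightest going from 10.28 ± 0.03 to 9.20 ± 0.04 in the MEF2C line in medium and from 10.08 ± 0.04 to 7.87 ± 0.02 in the MEF2C and ICN line. The study states that one of its *MEF2C* probe sets also covers the cloned cDNA, while the rest lie outside it and read the endogenous gene, without giving their identifiers in its text. For *NOTCH1* itself the brighter probe set gave 0.01 and 0.07 with dox in the ICN line and in the MEF2C and ICN line and did not pass (adjusted p = 0.957 and 0.656, limma), and a dimmer one, at 4.24 to 5.04, rose by 0.56 and 0.81 (adjusted p = 0.0129 and 0.000345). Of its targets, *NRARP* and *PTCRA* did not pass in either line, and *HES4* passed in the MEF2C and ICN line alone, at 1.34 (adjusted p = 0.0433, limma). *DTX1*, another target, went from 5.81 ± 0.48 to 8.12 ± 0.20 with dox in the ICN line and from 4.48 ± 0.11 to 7.26 ± 0.41 in the MEF2C and ICN line. *HES1* already read 10.19 ± 0.10 and 9.34 ± 0.06 in these lines without dox, against 5.59 ± 0.24 in the undosed MEF2C line. With dox that *HES1* probe set rose by 0.40 and 1.57 in these lines (adjusted p = 0.00746 and 4.1e-12, limma). Another *HES1* probe set gave 0.30 and 1.37 and passed in the MEF2C and ICN line alone (adjusted p = 0.073 and 2.43e-10, limma). A further one gave -0.14 and -0.10 and passed in neither (adjusted p = 0.692 and 0.779, limma). A *NOTCH3* probe set rose by 1.54 in the ICN line (adjusted p = 9.27e-10, limma). In the MEF2C and ICN line it gave 0.32 and did not pass (adjusted p = 0.105, limma), and its other probe set passed in neither line. The cells read *CD3E* at group means of 7.42 to 8.50 and *CD7* at 6.56 to 7.68, while *CD2* stayed at 3.37 to 3.71, under every array's median of 4.76 to 4.84. *PTPRC* read 9.98 to 11.64, *CD5* 4.95 to 6.76 and *CD34* 5.23 to 5.48. Some markers of other lineages also lay above the medians: *CD79A* (B cell) at 6.01 to 8.05, *HBB* (erythroid) at 5.83 to 7.17 and *COL1A1* (stroma) at 6.90 to 7.38. Another B cell marker, *MS4A1*, read 3.71 to 4.26. Arrays of a group correlated at 0.990 to 0.998. Replicate 2 of OP9-GFP without dox stood apart most, with 532 probe sets over 1 log2 unit from the mean of its group mates, against 1 to 307 for the other arrays.

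MEF2C induction lowered 5 of the 10 genes and raised 2, in each of medium and OP9-GFP. Without stroma *LAT* fell by 1.14 and *TESPA1* by 1.00 on the log2 scale, *SIT1*, *PRKCH* and *LCK* fell by less, and *TXK* and *SH2D1A* rose. The same 7 genes passed on OP9-GFP in the same directions, and on OP9-DL1 *ZAP70* fell as well, so that 6 fell and 2 rose. Of all probe sets, 6.32% passed in medium, 6.19% with OP9-GFP and 4.33% with OP9-DL1 (adjusted p under 0.05, limma). The 10 genes had median log2 fold changes of -0.15, -0.28 and -0.41 in these cultures, against -0.01, -0.03 and 0.01 over all genes. With the 9 arrays with dox set against the 9 without, 5 genes fell and 2 rose, where 5.41% of probe sets passed. *SH2D1A* was the weakest of these 7 and lost its call when any one replicate number was left out (adjusted p = 0.185, 0.212 and 0.274, limma).

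ICN induction gave a mixed picture. *LCK*, *LAT* and *ZAP70* rose and *TESPA1*, *SH2D1A*, *LCP2* and *SIT1* fell, 7 of 10 genes, where 12.4% of probe sets passed. With both factors induced 8 genes fell, *TXK* rose and *ZAP70* did not pass, where 13.3% of probe sets passed. The 10 genes had a median log2 fold change of -0.11 with ICN and -0.59 with both, against -0.03 and 0.02 over all genes. On a linear scale *LAT* fell 7.72-fold and *TESPA1* 3.13-fold with both factors. The dosed *LAT* arrays, at 4.93 to 5.68, lay close to the array medians, so the size of that fall is uncertain. On the log2 scale it was 2.95 on this probe set and 2.35 on the second. *THEMIS* fell 7.94-fold by its values, but its dosed arrays lay under every array's median, where the size of a fall is poorly measured. In all 10 genes the 3 arrays with both factors induced and the 3 undosed arrays of that line did not overlap. That held for *ZAP70* too, which did not pass, and the share of all probe sets without overlap was not counted.

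The effects of dox were then compared between lines. The effect of inducing both lay below that of ICN in 7 genes and above it in *TXK* and *SH2D1A*, and *LCP2* did not pass, where 7.64% of probe sets passed. Relative to MEF2C induction in medium, it moved 8 genes downward and none upward, where 7.90% passed, and *LCK* and *ZAP70* did not pass. These comparisons share the arrays of the MEF2C and ICN line with each other and with the single inductions, and they set one line against another.

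**Figure D1:**
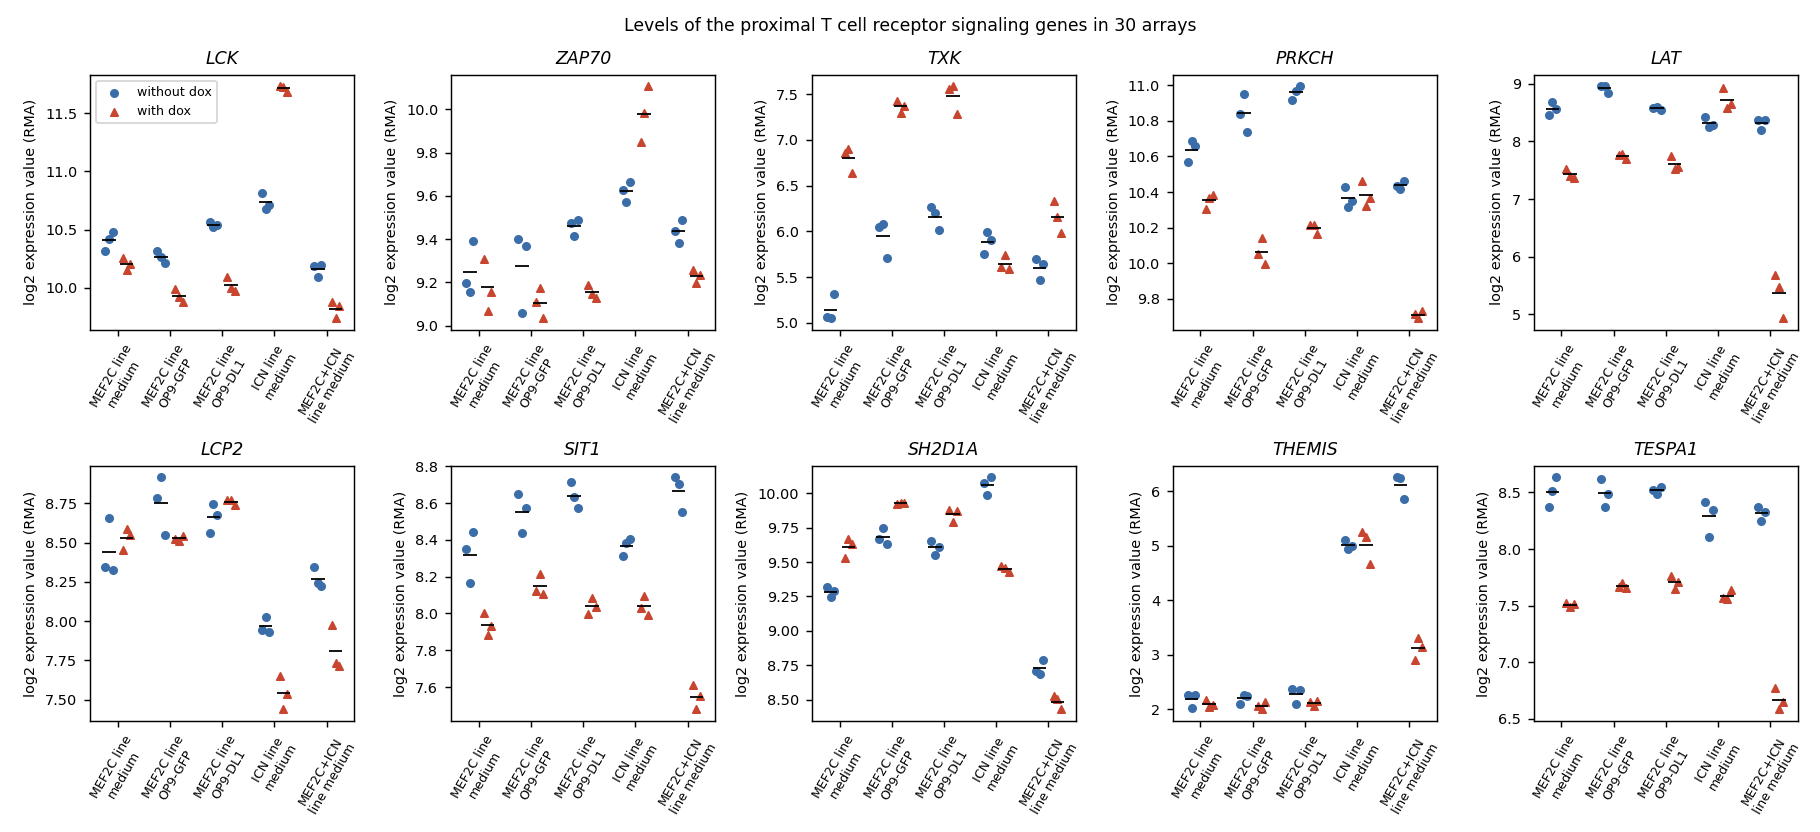
Log2 expression value of each of the 10 genes (y axis, its own scale in each panel) in the 30 arrays, for 5 combinations of line and culture (x axis), without dox (circles) and with dox (triangles). Points are arrays and black lines are means of 3. *LAT*, *THEMIS*, *TESPA1*, *SIT1* and *PRKCH* sit lowest in the dosed MEF2C and ICN line or, for *THEMIS*, drop there toward the level of the MEF2C line, and *LCK* sits highest in the dosed ICN line.

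Among the kinases, LCK starts the cascade, and its gene responded in opposite directions to ICN and to MEF2C. *LCK* read 10.82, 10.67 and 10.71 in the undosed ICN line and 11.73, 11.73 and 11.68 with dox, a rise of 0.98 ± 0.06 (log2, SE, adjusted p = 4.85e-12, limma). The dosed ICN arrays lay above all 27 others. The MEF2C and ICN line read 10.18, 10.09 and 10.20 without dox and 9.88, 9.74 and 9.85 with dox, a fall of 0.34 ± 0.06 (adjusted p = 0.000219, limma). The difference between these effects was -1.32 ± 0.09 (adjusted p = 2.36e-11, limma), and the second *LCK* probe set gave -1.26 ± 0.16.

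In the MEF2C line, *LCK* read 10.32, 10.42 and 10.48 without dox and 10.25, 10.15 and 10.21 with dox in medium. On OP9-GFP it read 10.32, 10.26 and 10.22 without and 9.99, 9.92 and 9.88 with dox, and on OP9-DL1 10.56, 10.52 and 10.54 without and 10.09, 10.001 and 9.97 with dox. The dosed arrays lay below the undosed ones in each culture. The falls were 0.20 ± 0.06, 0.33 ± 0.06 and 0.52 ± 0.06 (adjusted p = 0.0438, 0.000638 and 1.53e-06, limma). The call in medium was fragile. It was lost when undosed replicate 2 or 3 was left out (adjusted p = 0.102 and 0.188) or dosed replicate 1, 2 or 3 (0.0545, 0.169 and 0.103), and the second probe set, at -0.18 ± 0.11, did not pass there (adjusted p = 0.471, limma). That probe set did not pass on OP9-GFP either (-0.15 ± 0.11, adjusted p = 0.546) and fell on OP9-DL1 by 0.48 ± 0.11 (adjusted p = 0.0109, limma). Over the 3 cultures *LCK* fell by 0.35 ± 0.06 (adjusted p = 0.00112, limma), a call lost without the OP9-DL1 cultures (adjusted p = 0.103) and not made on the second probe set (-0.27 ± 0.09, adjusted p = 0.0737).

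*LCK* (chr1, 32251265 to 32286165, GRCh38.p14) has 2 promoter windows in RefSeq. The window around the second is printed below as the one of the 2 that holds a match to the core motif of RBPJ, the DNA-binding partner of ICN. Whether RBPJ or ICN acts on it was not tested. Promoter windows run from 250 bases before to 50 bases after a RefSeq start site. They were searched on both strands for 3 motifs: the RBPJ core TGGGAA, the RUNX motif TGTGGT and the consensus of MEF2. Within a window no match overlapped another. Capitals mark matches, here 1 RBPJ match on the plus strand that begins 175 bases before the start.
LCK, chr1:32273871-32274170, plus strand: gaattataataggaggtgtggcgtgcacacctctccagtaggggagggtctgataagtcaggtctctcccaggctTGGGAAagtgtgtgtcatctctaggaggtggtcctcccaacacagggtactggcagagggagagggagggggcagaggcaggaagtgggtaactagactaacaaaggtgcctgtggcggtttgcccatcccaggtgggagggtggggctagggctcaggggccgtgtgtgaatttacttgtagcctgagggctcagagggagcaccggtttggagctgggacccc
RBPJ cores stood in 24.0% of the 35116 promoter windows of all genes, and in 4 of the 15 windows of the 9 genes found here (*LCK*, *ZAP70* and both of *LAT*). The *LAT* windows overlap, and the match of the first is the same site as the upstream match of the second. RUNX motifs stood in 13.1% of all windows and 3 of these 15 (*LCK*, *LAT* and *THEMIS*), and MEF2 motifs in 2.99% of all windows and 0 of these 15. *TESPA1* had no entry. A match is a description of the letters in the window, and the absence of one says nothing of the factor.

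ZAP70 is the kinase that docks on phosphorylated CD3 chains. *ZAP70* varied least of the 10 genes, with group means 0.87 apart at most. In the ICN line it read 9.63, 9.57 and 9.66 without dox and 9.85, 9.98 and 10.11 with dox, a rise of 0.36 ± 0.08 (adjusted p = 0.0041, limma) with no overlap. The second *ZAP70* probe set gave 0.06 ± 0.27 and did not pass (adjusted p = 0.937, limma), so this rise rests on 1 probe set. With both constructs it read 9.44, 9.38 and 9.49 without dox and 9.26, 9.20 and 9.24 with dox. Those groups did not overlap, but the difference of -0.21 ± 0.08 did not pass (adjusted p = 0.12, limma). The difference between the effects of both factors and of ICN was -0.56 ± 0.12 (adjusted p = 0.00227, limma), and -0.30 ± 0.38 on the second probe set, which did not pass.

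On OP9-DL1, *ZAP70* read 9.47, 9.41 and 9.49 without dox and 9.19, 9.15 and 9.13 with dox. It fell there by 0.31 ± 0.08 (adjusted p = 0.0331, limma), but leaving out any one of these 6 arrays lost the call, with adjusted p between 0.0617 and 0.12, and the second probe set did not pass (-0.36 ± 0.27, adjusted p = 0.682, limma). The OP9-GFP arrays read 9.40, 9.06 and 9.37 without dox and 9.11, 9.17 and 9.04 with dox, where undosed replicate 2 lay among the dosed arrays. Without that array, the one that stood apart, the difference went from -0.17 to -0.28 and passed (adjusted p = 0.278 and 0.0442, limma). In medium the groups overlapped, from 9.16 to 9.39 without and from 9.07 to 9.31 with dox.

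TXK is a kinase of the TEC family, and its gene was the one that rose most with MEF2C. *TXK* read 5.07, 5.05 and 5.31 without dox and 6.86, 6.90 and 6.64 with dox in medium. Values on OP9-GFP were 6.05, 6.08 and 5.71 without and 7.42, 7.30 and 7.37 with dox, and on OP9-DL1 6.26, 6.20 and 6.01 without and 7.55, 7.59 and 7.28 with dox. All 9 dosed arrays lay above all 9 undosed ones. The rises were 1.66 ± 0.11, 1.42 ± 0.11 and 1.32 ± 0.11 (adjusted p = 7.45e-11, 1.94e-09 and 8.56e-09, limma). *TXK* has a single probe set, and its array values here run from 5.05 to 7.59, so part of the range lies close to the array medians.

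In the MEF2C and ICN line *TXK* read 5.70, 5.47 and 5.64 without dox and 6.34, 6.15 and 5.98 with dox. It rose by 0.55 ± 0.11 (adjusted p = 0.000931, limma), and the difference from the effect of MEF2C alone in medium was -1.10 ± 0.16 (adjusted p = 2.01e-05, limma). The ICN line read 5.75, 5.99 and 5.90 without and 5.61, 5.75 and 5.59 with dox, and the difference of -0.24 ± 0.11 did not pass (adjusted p = 0.21, limma). Before any dox it was higher in both lines with an ICN construct than in the MEF2C line, by 0.74 ± 0.11 in the ICN line and 0.46 ± 0.11 in the MEF2C and ICN line (adjusted p = 2.34e-05 and 0.004, limma). The *TXK* promoter window is shown as that of the gene raised most by MEF2C. It held no match to the 3 motifs, so it has no capitals.
TXK, chr4:48134201-48134500, minus strand: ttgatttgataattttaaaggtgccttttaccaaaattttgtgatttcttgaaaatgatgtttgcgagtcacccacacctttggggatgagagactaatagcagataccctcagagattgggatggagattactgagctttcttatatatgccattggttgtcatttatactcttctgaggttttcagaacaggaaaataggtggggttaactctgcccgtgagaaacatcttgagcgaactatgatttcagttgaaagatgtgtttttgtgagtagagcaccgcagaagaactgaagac

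PRKCH encodes a protein kinase C isoform, η. *PRKCH* read 10.57, 10.69 and 10.66 without dox and 10.31, 10.36 and 10.39 with dox in medium. On OP9-GFP it read 10.84, 10.95 and 10.74 without and 10.05, 10.14 and 9.99 with dox, and on OP9-DL1 10.92, 10.97 and 10.99 without and 10.21, 10.22 and 10.17 with dox. Dosed arrays were the lower ones in each culture, by 0.29 ± 0.06 without stroma, 0.78 ± 0.06 with OP9-GFP and 0.76 ± 0.06 with OP9-DL1 (adjusted p = 0.00299, 1.19e-09 and 2.04e-09, limma). Whether the fall differed between medium and stroma was not tested. In the ICN line it read 10.43, 10.32 and 10.35 without and 10.46, 10.32 and 10.37 with dox, overlapping, with a difference of 0.02 ± 0.06. The MEF2C and ICN line read 10.43, 10.42 and 10.46 without and 9.71, 9.69 and 9.73 with dox, a fall of 0.73 ± 0.06 (adjusted p = 7.46e-10, limma). That exceeded the fall with MEF2C alone in medium by 0.44 ± 0.09 (adjusted p = 0.000879, limma). A second *PRKCH* probe set fell by 0.77 ± 0.07 with both factors, and the dimmest one, with a mean of 4.02, gave 0.06 ± 0.16 and did not pass.

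LAT is the membrane adaptor on which the signaling complex is built. *LAT* read 8.46, 8.68 and 8.57 without dox and 7.51, 7.41 and 7.36 with dox in the MEF2C line in medium. The OP9-GFP arrays read 8.96, 8.96 and 8.84 without and 7.77, 7.78 and 7.69 with dox, and on OP9-DL1 8.58, 8.60 and 8.54 without and 7.74, 7.52 and 7.56 with dox. All 9 dosed arrays lay below all 9 undosed ones. *LAT* fell by 1.14 ± 0.12, 1.17 ± 0.12 and 0.97 ± 0.12 in the 3 cultures (adjusted p = 2.92e-07, 2.16e-07 and 5.31e-06, limma).

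With the ICN construct *LAT* read 8.42, 8.24 and 8.29 without dox and 8.93, 8.58 and 8.64 with dox. It rose by 0.40 ± 0.12 (adjusted p = 0.0314, limma), and the second probe set rose by 0.44 ± 0.08 (adjusted p = 0.000199, limma). On the brighter probe set the call was lost without undosed replicate 2 or 3 (adjusted p = 0.108 and 0.0878) or dosed replicate 1 (0.189). The MEF2C and ICN line started at 8.36, 8.19 and 8.38, and read 5.68, 5.48 and 4.93 with dox, lower than every other array of the series. That fall was 2.95 ± 0.12 (adjusted p = 7.16e-16, limma), and 2.35 ± 0.08 on the second probe set. It was larger than the fall with MEF2C alone by 1.81 ± 0.17 (adjusted p = 2.42e-08, limma) and lay 3.35 ± 0.17 below the effect of ICN (adjusted p = 2.51e-13, limma).

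*LAT* (chr16, 28984803 to 28990784, GRCh38.p14) has 2 overlapping promoter windows. The second is shown as that of the gene with the largest difference between ICN alone and both factors. Capitals mark 2 RBPJ cores, 1 on each strand at 238 and 65 bases before the start, and 1 RUNX motif on the minus strand that begins 3 bases before it.
LAT, chr16:28984802-28985101, plus strand: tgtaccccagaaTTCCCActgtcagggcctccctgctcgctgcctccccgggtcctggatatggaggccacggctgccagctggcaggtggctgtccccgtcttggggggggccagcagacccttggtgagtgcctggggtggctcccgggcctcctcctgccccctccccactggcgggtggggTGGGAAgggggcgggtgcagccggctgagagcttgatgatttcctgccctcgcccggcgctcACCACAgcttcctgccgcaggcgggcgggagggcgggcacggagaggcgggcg

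LCP2, or SLP-76, is the cytosolic adaptor that joins LAT. *LCP2* read 8.34, 8.66 and 8.33 without and 8.45, 8.59 and 8.55 with dox in the MEF2C line in medium, with overlap and a difference of 0.09 ± 0.09 (adjusted p = 0.723, limma). Values on OP9-GFP were 8.79, 8.92 and 8.55 without and 8.53, 8.51 and 8.54 with dox, and the difference of -0.22 ± 0.09 did not pass (adjusted p = 0.179, limma), but passed without undosed replicate 3 (adjusted p = 0.0368). On OP9-DL1 it read 8.56, 8.75 and 8.68 without and 8.77, 8.77 and 8.74 with dox. MEF2C thus gave no call in any culture. In the ICN line *LCP2* read 7.94, 8.02 and 7.93 without and 7.65, 7.44 and 7.54 with dox, a fall of 0.42 ± 0.09 (adjusted p = 0.00213, limma). With both constructs it read 8.35, 8.24 and 8.22 without and 7.98, 7.73 and 7.72 with dox, a fall of 0.46 ± 0.09 (adjusted p = 0.000705, limma), with no overlap in either line. The 2 falls differed by -0.04 ± 0.13, which did not pass (adjusted p = 0.916, limma). *LCP2* has 6 probe sets, and the dimmest did not share the fall with both factors clearly. The one of largest spread, with a mean of 4.52, gave -0.22 and did not pass (adjusted p = 0.436, limma). Another averaged 4.52 ± 0.31 without and 4.63 ± 0.24 with dox (SD, n = 3), while the brighter ones were lower with dox.

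SIT1 is a transmembrane adaptor that recruits the phosphatase SHP2 and dampens receptor signals. *SIT1* read 8.35, 8.16 and 8.44 without and 8.002, 7.88 and 7.93 with dox in medium. On OP9-GFP it read 8.65, 8.44 and 8.57 without and 8.12, 8.21 and 8.11 with dox, and on OP9-DL1 8.71, 8.63 and 8.57 without and 7.997, 8.09 and 8.04 with dox. It fell with MEF2C by 0.38 ± 0.07, 0.41 ± 0.07 and 0.60 ± 0.07 (adjusted p = 0.00113, 0.000597 and 3.02e-06, limma), without overlap within a culture. The ICN line read 8.31, 8.38 and 8.40 without and 8.03, 8.10 and 7.99 with dox, a fall of 0.32 ± 0.07 (adjusted p = 0.00298, limma). The MEF2C and ICN line read 8.74, 8.70 and 8.55 without and 7.61, 7.48 and 7.55 with dox, a fall of 1.12 ± 0.07 (adjusted p = 6.94e-12, limma). These last 3 arrays were the lowest of the 30.

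SH2D1A, or SAP, is a small SH2 adaptor that links SLAM receptors to the kinase FYN. *SH2D1A* rose with MEF2C, from 9.32, 9.24 and 9.29 to 9.53, 9.67 and 9.63 in medium. The OP9-GFP arrays read 9.66, 9.75 and 9.63 without and 9.92, 9.93 and 9.93 with dox, and on OP9-DL1 9.66, 9.55 and 9.61 without and 9.88, 9.79 and 9.87 with dox. The dosed arrays were above the undosed ones in each culture, by 0.33 ± 0.06, 0.25 ± 0.06 and 0.24 ± 0.06 (adjusted p = 0.000344, 0.00651 and 0.00979, limma). On OP9-DL1 the call was lost without undosed replicate 2 (adjusted p = 0.0698) or without dosed replicate 1 or 3 (0.0541 and 0.0521). In medium the other 3 *SH2D1A* probe sets gave 0.13 ± 0.10, 0.20 ± 0.10 and 0.16 ± 0.10 and did not pass.

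The response of *SH2D1A* to ICN was larger and held on all 4 probe sets. In the ICN line it read 10.08, 9.98 and 10.12 without and 9.47, 9.46 and 9.43 with dox, a fall of 0.61 ± 0.06 (adjusted p = 1.12e-08, limma), and the other probe sets fell by 0.61 to 0.73. With both factors it went from 8.71, 8.69 and 8.79 to 8.53, 8.50 and 8.43, a fall of 0.24 ± 0.06 (adjusted p = 0.00343, limma). The 2 undosed ICN-bearing lines stood on opposite sides of the undosed MEF2C line, at 0.78 ± 0.06 above and 0.56 ± 0.06 below it (adjusted p = 1.36e-10 and 4.64e-08, limma).

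THEMIS is an adaptor of developing thymocytes that acts with the phosphatase SHP1, and its gene separated the lines. *THEMIS* lay between 2.00 and 2.38 in all 18 arrays of the MEF2C line, whatever the culture or dox. It read 5.11, 4.93 and 4.99 in the undosed ICN line and 5.24, 5.15 and 4.66 with dox, with a difference of 0.01 ± 0.13 (adjusted p = 0.979, limma). The MEF2C and ICN line read 6.25, 6.23 and 5.86 without dox and 2.91, 3.31 and 3.15 with dox. That fall was 2.99 ± 0.13 (adjusted p = 9.16e-16, limma), and 3.18 ± 0.15 on the second probe set. Without dox *THEMIS* was 2.82 ± 0.13 higher in the ICN line and 3.93 ± 0.13 higher in the MEF2C and ICN line than in the MEF2C line (adjusted p = 9.74e-15 and 1.14e-17, limma). Of the Notch targets, *HES1* was higher in both lines on the probe set given above. *DTX1* and *HES4* were higher in the ICN line but did not pass in the MEF2C and ICN line (adjusted p = 0.433 and 0.345, limma). *NRARP*, *NOTCH3* and *PTCRA* passed in neither. A link between Notch activity and these *THEMIS* levels was not tested.

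Because *THEMIS* started under the array medians in the MEF2C line, a fall with MEF2C alone could hardly be measured there. The difference between both factors and MEF2C alone, -2.90 ± 0.18 (adjusted p = 6.25e-12, limma), carries that limit. The difference from ICN alone, -2.999 ± 0.18 (adjusted p = 3.55e-12, limma), does not use the MEF2C line. Both differences use the dosed MEF2C and ICN arrays, which at 2.91 to 3.31 also lay under every array's median, so their size is poorly measured. One of the 3 RefSeq promoter windows of *THEMIS* (gene at chr6, 127696628 to 127918595) is shown, the only one with a match to the motifs searched. Capitals mark 2 RUNX motifs, 1 on each strand, that begin 244 and 83 bases before the start.
THEMIS, chr6:127918546-127918845, minus strand: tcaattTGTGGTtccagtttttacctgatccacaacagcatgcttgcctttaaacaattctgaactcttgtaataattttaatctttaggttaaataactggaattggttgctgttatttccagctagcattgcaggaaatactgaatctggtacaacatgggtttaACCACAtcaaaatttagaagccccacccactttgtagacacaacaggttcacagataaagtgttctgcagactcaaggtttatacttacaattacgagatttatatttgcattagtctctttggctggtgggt

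TESPA1 associates with LAT and the phospholipase complex and is needed for thymocytes to pass positive selection. *TESPA1* read 8.37, 8.51 and 8.63 without and 7.53, 7.48 and 7.51 with dox in medium. Values on OP9-GFP were 8.62, 8.37 and 8.49 without and 7.66, 7.70 and 7.66 with dox, and on OP9-DL1 8.52, 8.49 and 8.55 without and 7.76, 7.65 and 7.71 with dox. As with *LAT*, all 9 dosed arrays lay below all 9 undosed ones, with falls of 1.00 ± 0.08, 0.82 ± 0.08 and 0.81 ± 0.08 (adjusted p = 9.23e-10, 4.44e-08 and 5.56e-08, limma). ICN lowered it too, from 8.41, 8.11 and 8.35 to 7.57, 7.56 and 7.64, by 0.70 ± 0.08 (adjusted p = 2.5e-07, limma). The dimmer *TESPA1* probe set gave -0.26 ± 0.18 for ICN and did not pass (adjusted p = 0.454, limma). With both factors it went from 8.37, 8.25 and 8.33 to 6.77, 6.58 and 6.65, by -1.65 ± 0.08 (adjusted p = 9.58e-15, limma), and by -1.41 ± 0.18 on the dimmer probe set.

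The effect of both factors was set beside the sum of the 2 single effects in medium, as values without a test. For *TESPA1* the sum was -1.70 and the effect of both -1.65, and for *SH2D1A* they were -0.28 and -0.24. For *LAT* the sum was -0.74 and the effect of both -2.95. For *LCK* the sum was 0.78 and the effect of both -0.34, so that the sign differed. *THEMIS* had a sum of -0.08 and an effect of -2.99, but a fall with MEF2C alone could hardly appear at its level in the MEF2C line, so its sum is not informative. The effect of both lay below the sum in 8 of the 10 genes, with a median difference of -0.48 against 0.03 over all genes. Without *THEMIS* it did so in 7 of 9, with a median of -0.46. Of the 55 other proximal pathway genes described below, 41 lay below their sum, with a median of -0.18. The share of all genes below their sum was not counted. The 3 effects come from 3 lines, whose levels without dox also differed.

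**Figure D2:**
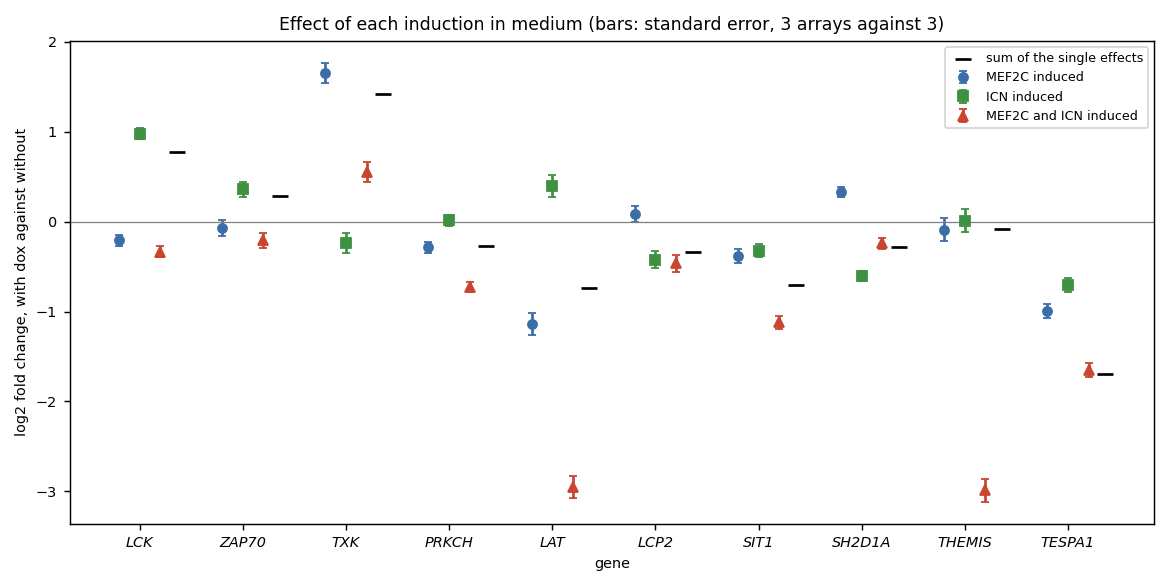
Log2 fold change of each gene with dox against without (y axis) for MEF2C induction (circles), ICN induction (squares) and induction of both (triangles), all in medium. Bars are standard errors from the limma model, 3 arrays against 3, and black dashes mark the sum of the single effects. The triangle lies far below the dash for *LAT* and *THEMIS* (whose MEF2C term was read where its level was too low to fall) and close to it for *TESPA1* and *SH2D1A*.

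The stroma cultures asked whether a Notch ligand changes these genes or their response to MEF2C. Of the 10 genes, 0 passed a difference in MEF2C effect between OP9-DL1 and OP9-GFP, where 0.148% of all probe sets passed (limma). At an unadjusted p under 0.05 there were 2, *LCK* at -0.19 ± 0.09 and *LCP2* at 0.32 ± 0.13. The share of all probe sets at that unadjusted threshold was not counted. OP9-DL1 against OP9-GFP without dox gave 1 gene, where 1.37% of probe sets passed. That was *LCK*, higher by 0.28 ± 0.06 (adjusted p = 0.0148, limma), a call lost without OP9-GFP replicate 3 (adjusted p = 0.064) or OP9-DL1 replicate 1 or 3 (0.077 and 0.0577). With dox, 0 of the 10 passed, where 1.23% of probe sets did. An unadjusted p under 0.05 was seen for 2 (*PRKCH* and *LCP2*), again with no share over all probe sets counted at that threshold. *HES1* was higher on OP9-DL1 than on OP9-GFP in both states, by 1.89 without and 3.19 with dox on the log2 scale (adjusted p = 4.11e-12 and 2.33e-17, limma), but it was also higher on OP9-GFP than in medium, by 1.86 without dox. *DTX1*, *NRARP*, *HES4*, *NOTCH3* and *PTCRA* did not pass between OP9-DL1 and OP9-GFP in either state.

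OP9-GFP against medium moved more genes. Without dox 6 of the 10 rose on stroma, where 18% of probe sets passed: *TXK* by 0.80 ± 0.11, *SH2D1A* by 0.40 ± 0.06, and *LAT*, *LCP2*, *SIT1* and *PRKCH* by 0.20 to 0.35. *TXK* and *SH2D1A* had adjusted p of 9.16e-06 and 1.1e-05 (limma). Without the OP9-GFP array that stood apart 3 genes passed in place of 6, and *LAT*, *LCP2* and *PRKCH* no longer did (adjusted p = 0.114, 0.128 and 0.112). Leaving out OP9-GFP replicate 1, or undosed replicate 1 of medium, also left 3. With dox *TXK* and *SH2D1A* were again higher on stroma, by 0.57 ± 0.11 and 0.32 ± 0.06, and *LCK* and *PRKCH* were lower, by -0.27 ± 0.06 and -0.29 ± 0.06, where 18.1% of probe sets passed. On the second probe sets these values were -0.20 ± 0.11 for *LCK* and -0.13 ± 0.07 for *PRKCH*, and neither passed (adjusted p = 0.268 and 0.243, limma). *LCP2* gave -0.002 with dox on its brightest probe set, but -1.04 on the dim one of largest spread (adjusted p = 0.993 and 1.87e-05, limma). OP9 cells are of mouse origin, and the probe sets of 5 human stromal genes had a mean level of 4.38 to 4.55 in groups on stroma and 4.20 to 4.43 elsewhere. Their part in these differences was not tested.

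Levels without dox also differed between the lines. In the ICN line 5 of the 10 genes were higher than in the MEF2C line (*THEMIS*, *SH2D1A*, *TXK*, *ZAP70* and *LCK*) and 2 were lower (*LCP2* and *PRKCH*), where 21.4% of probe sets passed. In the MEF2C and ICN line 3 were higher (*THEMIS*, *TXK* and *SIT1*) and 3 lower (*SH2D1A*, *LCK* and *PRKCH*), where 20.2% passed. In the MEF2C and ICN line *PRKCH*, at -0.20 ± 0.06 (adjusted p = 0.0191, limma), lost its call without undosed replicate 2 or 3 of the MEF2C line (0.0749 and 0.06) or replicate 1 or 2 of the other line (0.0574 and 0.0576). *LAT* did not pass in either comparison (-0.25 ± 0.12 in both).

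**Figure D3:**
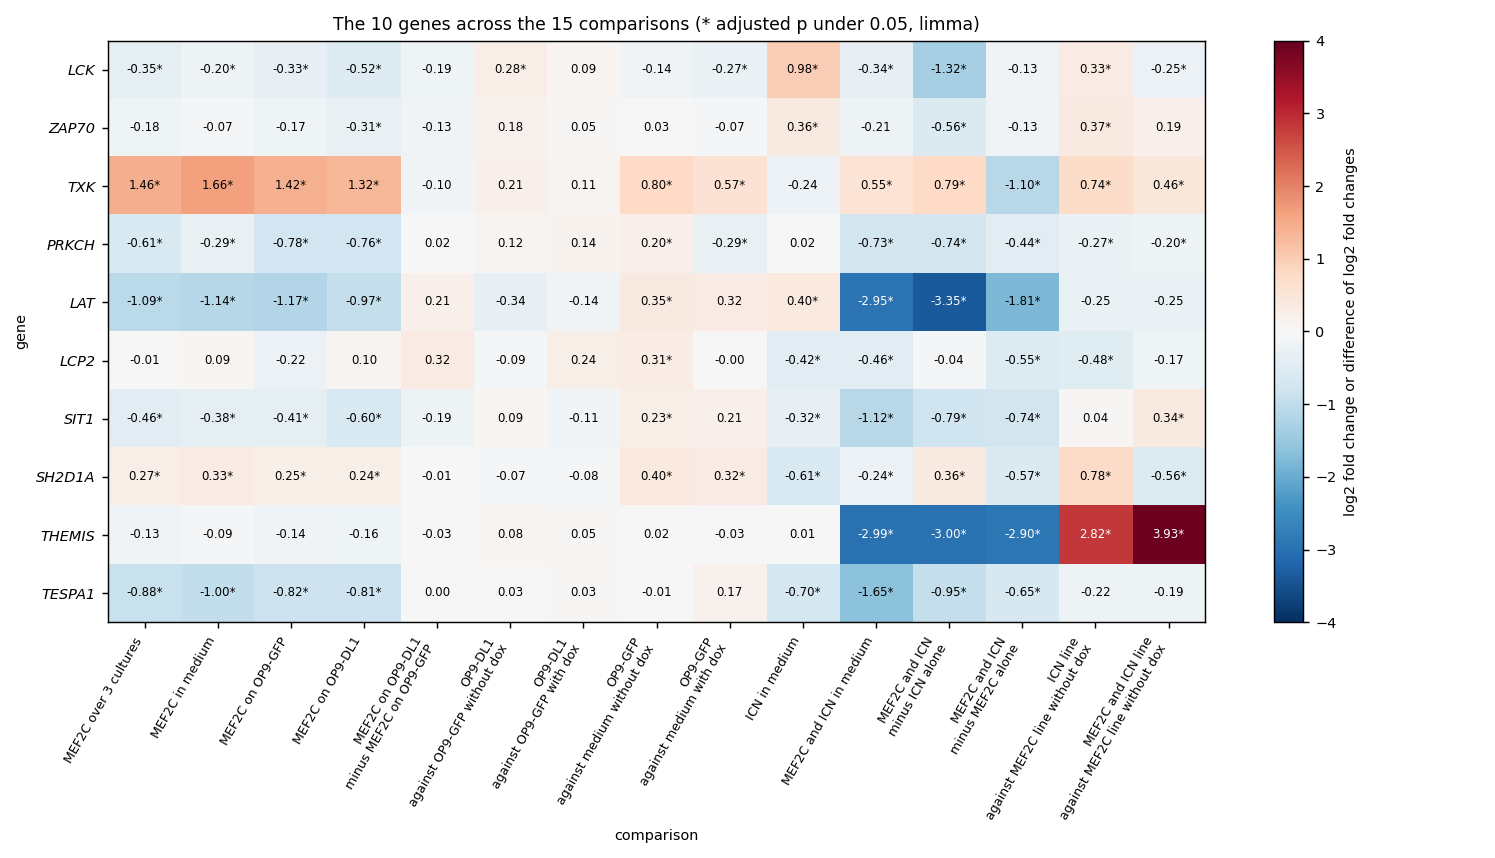
Log2 fold change, or difference of log2 fold changes, of the 10 genes (rows) in the 15 comparisons (columns), with red for higher and blue for lower. A star marks an adjusted p under 0.05 in limma. *LAT* and *TESPA1* are blue and *TXK* red in the columns that set dox against no dox with a MEF2C construct. The columns of MEF2C on OP9-DL1 minus OP9-GFP and of OP9-DL1 against OP9-GFP with dox hold no star.

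Ordered by group mean, 6 of the 10 genes (*LCK*, *PRKCH*, *LAT*, *SIT1*, *SH2D1A* and *TESPA1*) were lowest in the dosed MEF2C and ICN line. The share of all genes lowest there was not counted, and with dox in that line 4388 probe sets fell and 2870 rose. *THEMIS* had the widest span of group means, 4.05 on the log2 scale, then *LAT* with 3.55 and *TXK* with 2.33. For *LAT* the dosed MEF2C and ICN line, at 5.36 ± 0.39, was followed upward by the dosed MEF2C line in medium, at 7.43 ± 0.08, on OP9-DL1, at 7.61 ± 0.12, and on OP9-GFP, at 7.75 ± 0.05 (SD, n = 3). Of these 4, only the last pair overlapped. The 4 highest *LAT* groups, from 8.57 to 8.92, each overlapped the next. For *LCK* the 4 highest groups, the dosed and undosed ICN line and the undosed MEF2C line on OP9-DL1 and in medium, did not overlap, while the 6 lower ones each overlapped the next. For *THEMIS* the 6 groups of the MEF2C line each overlapped the next, as did the dosed and undosed ICN line.

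The other 15 probe sets gave 0 calls opposite to the main probe set in any of the 15 comparisons. They gave the same call for 10 of 15 with MEF2C in medium, 11 with ICN and 9 with both, and for as few as 7 for OP9-GFP against medium without dox and 8 for both factors minus MEF2C alone.

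Over the 10 group means, *SIT1* and *TESPA1* were the most alike pair (Pearson r = 0.94), then *LCK* and *ZAP70* (0.93), *PRKCH* and *TESPA1* (0.88) and *LAT* and *TESPA1* (0.87). *ZAP70* and *LCP2* ran opposite (r = -0.70). These are descriptions over 10 groups that share lines and cultures. Among 2081 genes whose group means span at least 1 log2 unit, those most like *LAT* were *LOC105375172* (r = 0.96), *SLC4A4* (0.96) and *ELK3* (0.95). Those most like *TESPA1* were *PRKCQ-AS1* (0.97), *HCST* (0.97) and *CYSLTR1* (0.97), and those most like *TXK* were *HOMER3* (0.93), *C21orf91-OT1* (0.92) and *POLR1F* (0.92).

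The rest of the proximal pathway was followed in 58 other genes, of which 55 had a single-symbol probe set. With MEF2C in medium 4 rose and 11 fell, and 40 did not pass, where 6.32% of all probe sets passed. *TEC*, a kinase of the same family as *TXK*, rose by 1.30 ± 0.11, and the receptor-associated adaptor *TRAT1* fell by 1.18 ± 0.14 (adjusted p = 4.3e-09 and 1.06e-06, limma). *PTPN22*, a phosphatase that acts on LCK, fell by 0.67 ± 0.10 and the inhibitory adaptor *SLA* by 0.59 ± 0.07. On OP9-GFP 3 rose and 18 fell, and on OP9-DL1 4 rose and 16 fell. These compare with 6.19% and 4.33% of all probe sets. The median log2 fold change of the 55 was -0.11, -0.16 and -0.16 in the 3 cultures, against -0.01, -0.03 and 0.01 over all genes.

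With ICN 11 of the 55 rose and 12 fell, where 12.4% of all probe sets passed, with a median of -0.01 against -0.03 over all genes. All 4 receptor chains on the list rose: *CD3G* by 1.25 ± 0.11, *CD3E* by 0.81 ± 0.09, *CD3D* by 0.74 ± 0.06 and *CD247* by 0.41 ± 0.08. *PTPN6*, the phosphatase SHP1, rose by 1.36 ± 0.11, *CD28*, a costimulatory receptor, by 1.15 ± 0.09, and *FYN*, the LCK relative that pairs with SH2D1A, by 1.11 ± 0.07. With both factors 8 rose and 20 fell, where 13.3% of all probe sets passed, with a median of -0.10 against 0.02 over all genes, and 1 of the 4 receptor chains rose (*CD3D*, by 0.55 ± 0.06). *CD28* rose by 2.79 ± 0.09, from a level in the undosed line 3.99 ± 0.09 below that of the MEF2C line. *SLA* and *SLA2*, adaptors that promote receptor degradation, had log2 fold changes of -1.91 ± 0.07 and -1.60 ± 0.08, and *PTPRC*, the phosphatase CD45 that activates LCK, fell by 1.66 ± 0.08. *CD3E* and *CD3G* differed between both factors and ICN alone by -0.81 ± 0.12 and -0.98 ± 0.15 (adjusted p = 4.86e-05 and 6.34e-05, limma), while *CD3D* and *CD247* did not pass. Against MEF2C alone the effect of both was higher for *CD3D*, by 1.13 ± 0.08, and *CD3G*, by 0.81 ± 0.15, and the other 2 chains did not pass (adjusted p = 1.7e-10, 0.000597, 0.286 and 0.168 for *CD3D*, *CD3G*, *CD3E* and *CD247*, limma).

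**Figure D4:**
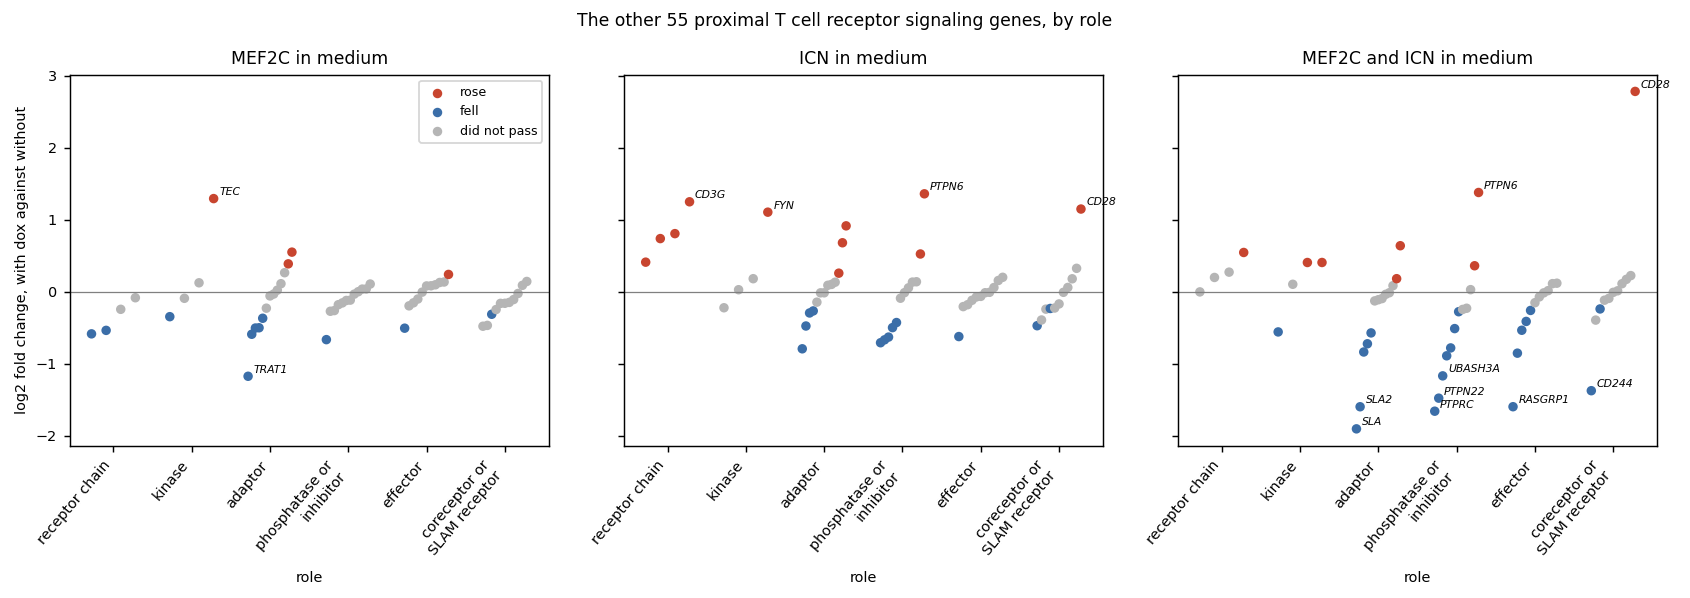
Log2 fold change of the 55 other genes of the proximal pathway (y axis), grouped by role (x axis), for MEF2C, ICN and both inductions in medium. Red points rose, blue points fell and grey points did not pass (limma, adjusted p under 0.05), and names mark changes over 1. All 4 receptor chains are red with ICN, and most colored adaptors, phosphatases and effectors are blue with both factors.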

How the data were processed

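RNA of 30 samples was hybridized to Affymetrix HG U133 Plus 2.0 arrays. The deposited values are log2 expression levels that the authors made with RMA, with affy 1.64.0 under R 3.6.3 according to the submitters' processing notes. RMA removes overall brightness differences and compresses changes of dim probe sets. Arrays have no read depth, and 3 arrays a group limit the precision.

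Values were used as deposited, without 62 control probe sets. Of 54675 probe sets, the platform table gives 41097 a single symbol, leaves 11777 unnamed and pairs 1801 with several genes. The remaining 54613 probe sets were fitted with limma 3.58.1 in R 4.3.3, 1 model of 10 groups, except 9 arrays against 9, fitted on those 18 alone. P-values were Benjamini-Hochberg adjusted over all probe sets and called at 0.05. The brightest probe set stood for a gene. Alternatives changed filter, scaling, normalization, prior, replicate block, arrays fitted and probe set, and left out arrays. The steps were tested on simulated data.

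The members and the pathway list were chosen with earlier results of these data known. The rule for names took all members, up to 4 other pathway genes per comparison by size of change, and 3 like genes for *LAT*, *TESPA1* and *TXK*. Receptor chains were also named, after their values were seen. Promoters are from RefSeq (GRCh38.p14), where 9 of the 10 genes matched.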

Additional observations from a re-analysis of the deposited data

Results flagged for a closer look

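For 9 of the 10 genes the effect of inducing both factors differed from that of ICN alone by limma's test of the difference: *LCK* by -1.32, *ZAP70* by -0.56, *TXK* by 0.79, *PRKCH* by -0.74, *LAT* by -3.35, *SIT1* by -0.79, *SH2D1A* by 0.36, *THEMIS* by -2.999 and *TESPA1* by -0.95 on the log2 scale. For 8 it differed from that of MEF2C alone in medium: *TXK* by -1.10, *PRKCH* by -0.44, *LAT* by -1.81, *LCP2* by -0.55, *SIT1* by -0.74, *SH2D1A* by -0.57, *THEMIS* by -2.90 and *TESPA1* by -0.65. Each sets lines with different constructs against each other, and line and construct cannot be told apart. For *THEMIS* the second difference rests on a level in the MEF2C line too low to show a fall.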

How the results depend on the processing

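Over all refits of single genes, 2155 kept direction and side of the threshold, 100 lost the call, 29 gained it and 1 turned: *LCP2* on OP9-GFP against medium without dox went from 0.31 to -0.28 (adjusted p = 0.253, limma) with the probe set of largest spread. The cause was not tested. With only the compared groups fitted, and so fewer arrays behind the spread, the members called went from 7 to 3 with MEF2C in medium, from 7 to 4 on OP9-GFP, from 1 to 0 for OP9-DL1 against OP9-GFP without dox, from 6 to 2 for OP9-GFP against medium without dox and from 6 to 3 between the MEF2C and ICN line and the MEF2C line. With the mean of a gene's probe sets 4 passed with MEF2C in medium. Leaving out 1 array at a time gave 3 to 5 for OP9-GFP against medium without dox and 0 to 1 for OP9-DL1 against OP9-GFP without dox. With both factors *LCK*, *TXK*, *PRKCH*, *LAT*, *SIT1* and *TESPA1* passed in every refit. So did *THEMIS* in the refits that held it, as the filter on mean level left it out.

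With the replicate block 7 members passed with MEF2C in medium and 9 with both factors, as without it, and 6 in place of 7 over the 3 cultures, where *SH2D1A* lost its call. The numbers did not pair the arrays: deviations of same-numbered arrays correlated between -0.14 and 0.19, and 10 of 30 arrays were closest to their own number.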
